A study of Rattus norvegicus with 4 samples.

Results

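The genes described here encode the oxidases that release hydrogen peroxide or superoxide at the surface of the gut epithelium, with their partner proteins and 1 peroxidase. The list held the dual oxidases Duox1 and Duox2, their maturation factors Duoxa1 and Duoxa2, the NADPH oxidase Nox1 with its partners Noxo1, Noxa1, Cyba and Rac1, and the glutathione peroxidase Gpx2. Members were found by symbol among array rows that carry a single gene symbol, taking the row of highest mean where a gene has several. Of the 10 listed genes 8 were measured, each by 1 row, out of 13215 genes with such a row and 19403 rows in all. Nox1 and Cyba were not analysed here, so the Nox1 complex was seen only through Noxo1, Noxa1 and Rac1. Rows were chosen by symbol and mean level alone, but the genes were proposed with earlier results of these data in view, among them the low Duoxa2 values under aldosterone. Their differences between the groups are therefore a description.

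Surface colonocytes were taken from the distal colon of 4 Wistar rats aged 12 weeks, all of them adrenalectomized 4 days earlier and kept on 0.9% NaCl as drinking water, so that vehicle rats too lacked adrenal steroids. The aldosterone group of 2 rats had subcutaneous aldosterone, 50 µg injected per 100 g of body weight and 10 µg/kg per hour delivered from an implanted minipump, and the vehicle group of 2 rats had vehicle injected and a pump with PEG300. Tissue was taken 2 h later, and the cells were shaken off the inverted colon for 40 min with 100 nM aldosterone or with vehicle. Each rat gave 1 Affymetrix exon array, and levels are log2 values with differences as aldosterone minus vehicle. The study compared these groups to find genes regulated by aldosterone in these cells.

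Dual oxidases sit in the apical membrane, take electrons from NADPH inside the cell and form hydrogen peroxide outside it. Each needs a maturation factor, DUOXA1 or DUOXA2, to leave the endoplasmic reticulum, and in the gut DUOX2 with DUOXA2 is known as a host defence system that responds to microbes and cytokines. NOX1, the colon's other epithelial oxidase, makes superoxide and works with the membrane partner p22phox (Cyba), the organizer NOXO1, the activator NOXA1 and the GTPase RAC1. GPX2 is the glutathione peroxidase of the gut epithelium and reduces hydroperoxides.

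In the RefSeq annotation of the GRCr8 rat assembly the 4 dual oxidase genes follow each other on chromosome 3 in the order Duox2, Duoxa2, Duoxa1 and Duox1, with no other gene between them. The 300 bases around the start of Duox2 and of Duoxa1, from 250 bases before to 50 bases after it, are shown because each reaches into the neighbouring gene of its pair. The Duox2 window lies at chr3:129698704-129699003 on the minus strand, and 66 of its bases belong to Duoxa2. The Duoxa1 window lies at chr3:129713957-129714256 on the minus strand and overlaps Duox1. The Gpx2 window, at chr6:101229984-101230283 on the minus strand, is shown for its antioxidant response element core. Sequences are from RefSeq and are written 5′ to 3′ on the gene's own strand. These positions place the genes and not the probes, since the build behind the array rows is not given in the sources used here. Capitals mark matches to TATAAA and TGANTCA in the dual oxidase windows and to TGACNNNGC in the Gpx2 window, on either strand.
Duox2: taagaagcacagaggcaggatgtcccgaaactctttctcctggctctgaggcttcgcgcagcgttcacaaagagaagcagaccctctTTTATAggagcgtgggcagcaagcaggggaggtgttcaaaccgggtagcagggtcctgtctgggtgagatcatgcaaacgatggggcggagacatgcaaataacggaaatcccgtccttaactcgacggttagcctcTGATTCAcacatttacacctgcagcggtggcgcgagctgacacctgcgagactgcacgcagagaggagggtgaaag
Duoxa1: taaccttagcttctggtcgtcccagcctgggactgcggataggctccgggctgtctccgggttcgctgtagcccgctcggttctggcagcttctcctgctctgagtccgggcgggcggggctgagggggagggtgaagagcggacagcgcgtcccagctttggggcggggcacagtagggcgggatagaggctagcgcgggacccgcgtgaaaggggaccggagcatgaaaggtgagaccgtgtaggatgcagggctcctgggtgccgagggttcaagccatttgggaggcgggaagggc
Gpx2: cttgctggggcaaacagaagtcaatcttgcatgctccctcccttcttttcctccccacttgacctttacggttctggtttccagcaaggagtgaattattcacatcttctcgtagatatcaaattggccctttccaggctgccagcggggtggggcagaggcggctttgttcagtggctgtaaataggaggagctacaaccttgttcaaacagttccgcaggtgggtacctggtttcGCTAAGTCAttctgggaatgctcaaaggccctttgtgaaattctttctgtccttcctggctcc

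The Duox2 window held 1 match to TATAAA, the TATA box, read on the strand opposite to Duox2. Its last base lies 22 bases before the annotated start of Duoxa2, with Duoxa2 read away from Duox2 as the known head-to-head arrangement of these genes has it. The same window held 1 match to TGANTCA, a loosened form of the AP-1 site with its central base left free, 26 bases before the start of Duox2. The matched bases are TGATTCA, and a stricter form of the site was not searched. Of 33469 promoter windows of this length, 14.2% held TATAAA and 7.33% held TGANTCA. The Duoxa1 window held neither and was richer in G and C, with 66.7% against 55.3% in the Duox2 window and a median of 51.7% over all windows. In the Gpx2 window the sequence TGACNNNGC, the core of the antioxidant response element bound by NRF2, was matched on the opposite strand 13 bases before the start, and 12.1% of all windows held it. AGAACA, the hexamer of a corticosteroid response element, occurred in the windows of Duox1 and Noxo1 among the 6 measured members with a window, and in 20.7% of all windows. Its palindromic form, with 3 free bases between the arms, and the NF-kappa B motif occurred in none of the 6, and in 0.0149% and 7.51% of all windows. TTCNNNGAA, the STAT motif, occurred in the Gpx2 window and in 8.87% of all windows. All motifs were searched on both strands. The Gpx2 match to the STAT motif begins at the base next to its antioxidant response element match.

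Duox2 and Duoxa2 stood lower in both aldosterone rats than in either vehicle rat. Duox2, the peroxide-producing oxidase, had log2 values of 7.99 and 6.44 in the aldosterone rats against 8.91 and 8.97 in the vehicle rats. The vehicle rats were alike, and the aldosterone rats differed from each other by 1.56, with replicate 2 the lower. Group means were 7.22 ± 1.10 with aldosterone and 8.94 ± 0.047 with vehicle (SD, n = 2 each), a log2 difference of -1.72 with a 95% interval from -3.24 to -0.21. As a fold, Duox2 was 3.30-fold lower with aldosterone, with an interval from 1.15-fold to 9.46-fold. Duoxa2, the factor that brings DUOX2 to the cell surface, had values of 5.84 and 4.04 in the aldosterone rats against 7.73 and 8.34 in the vehicle rats. The groups were separated by 1.89, which was more than the 1.80 between the aldosterone rats or the 0.61 between the vehicle rats. Its means were 4.94 ± 1.28 with aldosterone and 8.03 ± 0.43 with vehicle, a log2 difference of -3.09 (interval -4.94 to -1.25). Duoxa2 was 8.54-fold lower with aldosterone, with an interval from 2.38-fold to 30.7-fold. These intervals are from limma with a constant prior variance, which draws the spread of each gene toward that of all rows. With no such prior the intervals of both genes held 0. They ran from -5.08 to 1.63 for Duox2 and from -7.19 to 1.00 for Duoxa2.

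Among all 19403 rows Duoxa2 had the most negative difference and Duox2 ranked 7 in that order. By rank within an array, Duox2 stood at percentiles 95.3 and 90.0 of all rows in the aldosterone rats and at 97.3 and 97.6 in the vehicle rats. Duoxa2 stood at percentiles 86.9 and 75.2 in the aldosterone rats and at 94.2 and 96.4 in the vehicle rats. Both genes ranked above most rows in every rat, and the lowest of these ranks was that of Duoxa2 in aldosterone replicate 2. The log2 difference between the rows of Duoxa2 and Duox2 within an array was -2.15 and -2.40 in the aldosterone rats against -1.18 and -0.64 in the vehicle rats. The gap was larger in both aldosterone rats than in either vehicle rat, a description for which no test is given. In bulk RNA, fewer cells of a type and less RNA per cell cannot be told apart.

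**Figure D1:**
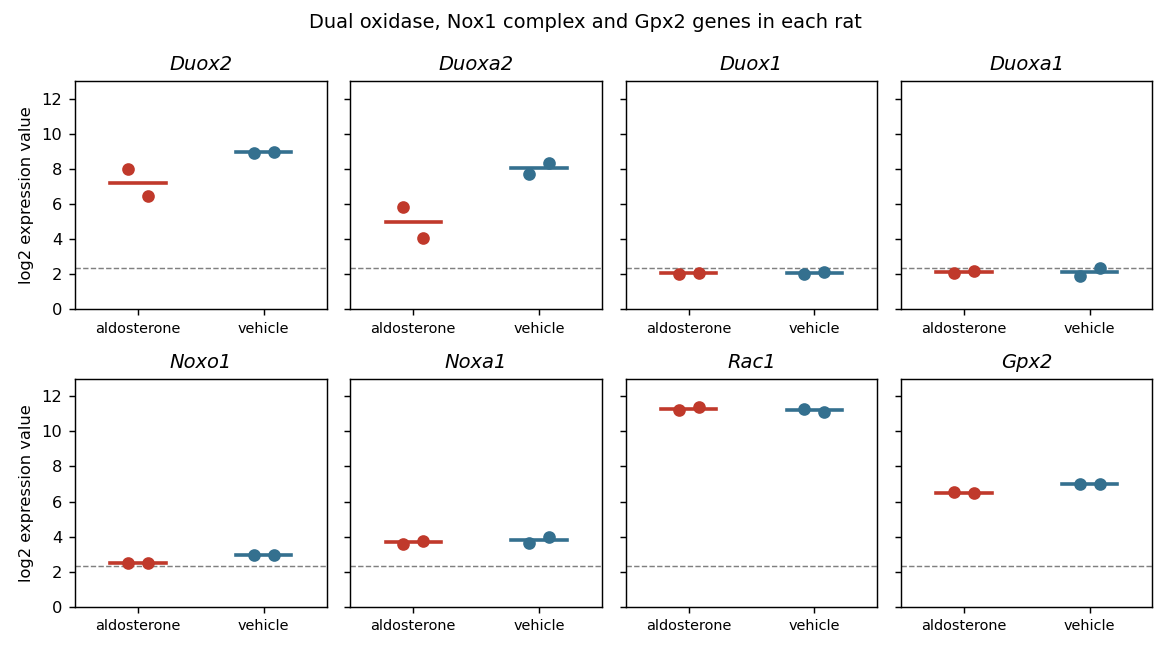
Log2 expression values (vertical axis) of the 8 measured genes in each of 2 aldosterone rats (left, red) and 2 vehicle rats (right, blue). Points are rats, short bars group means, and the dashed line is the median of all row means, 2.35. Duox2 and Duoxa2 lie lower in both aldosterone rats, by 1.72 and 3.09 in the mean, while Duox1 and Duoxa1 lie below the dashed line in the group means.

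The whole-table test did not call these differences with the constant prior. In limma with a constant prior variance and Benjamini-Hochberg adjustment over all rows, the adjusted p was 0.813 for Duoxa2 and 1.00 for Duox2. The threshold of 0.05 was passed by 0 of the 8 members and by 0 of all rows (0%), and the smallest adjusted p of any row was 0.332. With a prior variance that follows the expression level, Duoxa2 passed with an adjusted p = 0.0362 and Duox2 did not, at 0.322. That fit called 1 of 8 members against 0.108% of all rows. The call of Duoxa2 was lost with the replicate number as a block (adjusted p = 0.172). For fits with 1 array left out only the size of the difference is given here. Without a vehicle array the gene's own spread came from the aldosterone rats alone, which differed more (SD 1.28 against 0.43 in the vehicle rats). The log2 difference of Duoxa2 was -3.40 without vehicle replicate 1 and -2.79 without vehicle replicate 2. It was -3.996 without aldosterone replicate 1 and -2.19 without aldosterone replicate 2. No p is given for these fits, since each leaves 1 rat in a group and cannot measure the spread of that group. The difference of Duox2 depended on aldosterone replicate 2, and was -0.95 without it against -2.50 without aldosterone replicate 1.

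**Figure D2:**
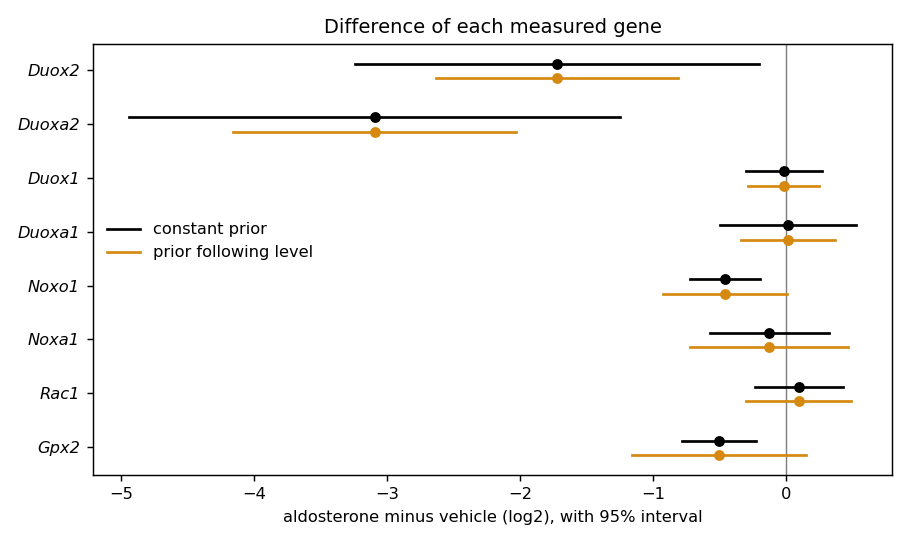
Aldosterone minus vehicle on the log2 scale (horizontal axis) with 95% intervals from limma, for the constant prior (black) and for the prior that follows level (orange), 2 rats a group. Duox2 and Duoxa2 have the widest intervals, and those of Duox1, Duoxa1, Noxa1 and Rac1 cross 0 under both priors. Those of Noxo1 and Gpx2 cross 0 only with the prior that follows level.

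The other dual oxidase pair showed no level that could be told from the floor of the array. Duox1 had log2 values of 2.02 and 2.06 in the aldosterone rats against 2.00 and 2.11 in the vehicle rats. Duoxa1, the maturation factor of DUOX1, had 2.07 and 2.19 in the aldosterone rats against 1.89 and 2.34 in the vehicle rats. The groups overlapped for both genes, and both means lay below the median of all row means, 2.35. The log2 differences were -0.0187 for Duox1 (interval -0.30 to 0.27) and 0.0136 for Duoxa1 (interval -0.50 to 0.52), and each changed sign under some settings. Whether either gene was expressed could not be read at this level.

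Among the partners of NOX1, only Noxo1 had groups that did not overlap, at levels close to the floor. Noxo1, the organizer subunit, had log2 values of 2.51 and 2.48 in the aldosterone rats against 2.95 and 2.95 in the vehicle rats. Its log2 difference was -0.46 (interval -0.72 to -0.19) with an adjusted p = 0.805 in limma with the constant prior. With the prior that follows level the interval was -0.93 to 0.0092, which holds 0. No fold is given, since 65.0% of all rows had a mean below 3, as Noxo1 did. Noxa1, the activator subunit, had 3.60 and 3.76 in the aldosterone rats against 3.64 and 3.97 in the vehicle rats, with a log2 difference of -0.13 (interval -0.57 to 0.32). Rac1, the GTPase that NOX1 shares with many other processes, had 11.21 and 11.37 in the aldosterone rats against 11.26 and 11.12 in the vehicle rats. The Rac1 groups overlapped. The interval of its log2 difference, -0.24 to 0.43 with the constant prior, spans a 1.18-fold fall to a 1.34-fold rise. These limits depended on the fit. The interval was narrower with quantile normalization (-0.22 to 0.30) and wider with the prior that follows level (-0.30 to 0.49). It was also wider without any prior (-0.35 to 0.55) and when only rows of mean 4 or above were fitted (-0.51 to 0.70). A change in Rac1 above 1.34-fold is therefore not excluded.

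Gpx2 stood lower in both aldosterone rats than in either vehicle rat, by a small amount. Gpx2 had log2 values of 6.56 and 6.47 in the aldosterone rats against 7.02 and 7.02 in the vehicle rats. The means were 6.51 ± 0.068 with aldosterone and 7.02 ± 0.0035 with vehicle (SD, n = 2 each), a 1.42-fold lower level with an interval from 1.17-fold to 1.72-fold with the constant prior. With the prior that follows level the log2 difference had an interval of -1.16 to 0.15, which holds 0. Its adjusted p was 0.798 in limma with the constant prior and 1.00 with the prior that follows level.

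In all, 4 of the 8 measured members (Duox2, Duoxa2, Noxo1 and Gpx2) had both aldosterone values below both vehicle values, against 11.1% of all rows. None had both values higher, against 16.7% of all rows. The same 4 genes had an unadjusted p under 0.05 in limma with the constant prior, against 4.53% of all rows. With the prior that follows level this held for 2 of the 8, Duox2 and Duoxa2, against 4.67% of all rows. Since the list was put together with results of this comparison known, nothing is read from these shares. The median log2 difference of the 8 members was -0.29, beside 0.0239 for all rows.

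The genes whose values ran most like those of Duox2 were sought among 4131 other genes with a mean of 4 or more, by the root-mean-square distance between profiles centred on each gene's mean over the 4 rats. The 5 nearest to Duox2 were Egr2, an early growth response transcription factor gene (distance 0.20), Eid3 (0.22), Slc25a25, a mitochondrial ATP-Mg/phosphate carrier gene (0.26), Pon3, a paraoxonase gene (0.29), and Etv3, an ETS family repressor gene (0.30). Egr2 had log2 values of 5.47 and 3.90 in the aldosterone rats against 5.99 and 6.03 in the vehicle rats, with aldosterone replicate 2 again lowest. The gene nearest to Duoxa2 was Duox2 itself, at a distance of 0.72. It was followed by Rap2b, a Ras-related GTPase gene (0.77), Hrh1, the histamine H1 receptor gene (0.85), Slc25a25 (0.86) and Plk2, a polo-like kinase gene (0.87). Hrh1 had 6.59 and 6.04 in the aldosterone rats against 7.86 and 8.11 in the vehicle rats. Seen from Duox2, Duoxa2 ranked 186 among the 4131 genes, with a larger difference between the groups than Duox2 had. Nearest to Gpx2 was Aff1 (0.0251) and nearest to Rac1 was Rps6ka4 (0.0175). These distances describe 4 arrays and carry no test.

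**Figure D3:**
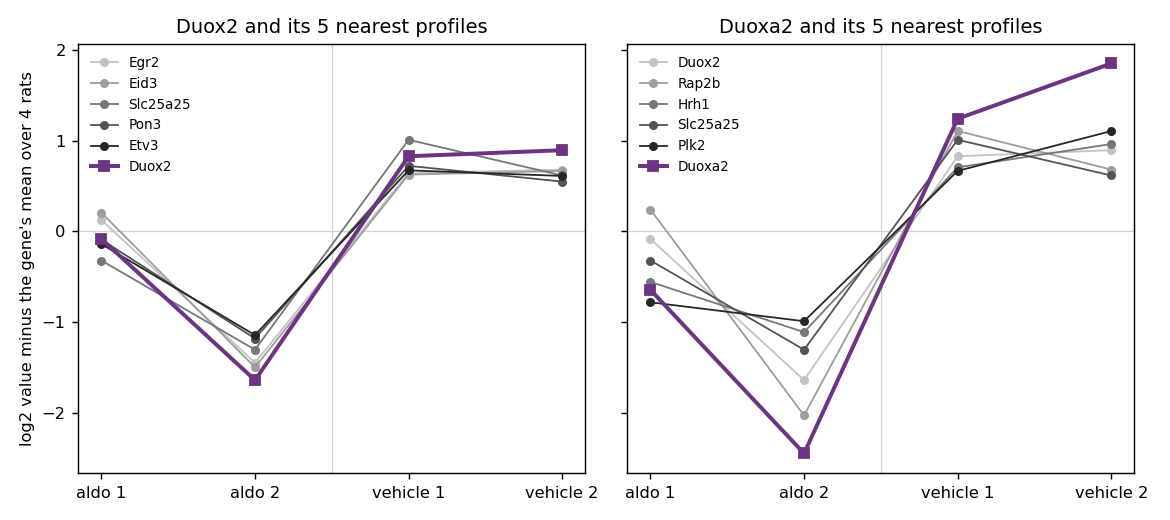
Log2 values minus each gene's mean over the 4 rats (vertical axis) in aldosterone rats 1 and 2 and vehicle rats 1 and 2 (horizontal axis), for Duox2 (left panel) and Duoxa2 (right panel) in purple and for the 5 genes with the nearest profiles in grey. Lines only join the values of a gene. Aldosterone replicate 2 holds the lowest value of every gene drawn, and Duoxa2 spans a wider range than its neighbours.

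Genes that act beside the oxidases were read from the same fit. Of 7 measured genes of the phagocyte oxidase and other NADPH oxidases, 0 passed the threshold in either direction with either prior, and the median log2 difference was 0.0340. The named genes were Rac2, the leukocyte counterpart of RAC1, with 4.49 and 5.07 in the aldosterone rats against 4.52 and 4.09 in the vehicle rats, and Poldip2 and Cybc1, both with overlapping groups. Cybb, the catalytic subunit of the phagocyte oxidase, named after its values were seen, had 2.40 and 2.80 in the aldosterone rats against 2.85 and 2.65 in the vehicle rats, near the floor.

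NRF2 is the factor that induces antioxidant enzymes, and the list of its pathway is not made of targets alone. Of its 11 measured genes, 8 had a negative and 3 a positive difference, with a median of -0.15. None passed the threshold with either prior. The groups did not overlap in 5 lower and 1 higher of the 11, beside 11.1% of all rows lower and 16.7% higher. The 5 lower include Keap1, which encodes the protein that holds NRF2 in check and was named after its values were seen. Its groups almost touched, at 4.62 and 4.81 with aldosterone against 4.86 and 4.82 with vehicle. Nqo1, a quinone reductase and a classic NRF2 target, had log2 values of 5.52 and 6.32 in the aldosterone rats against 7.21 and 7.09 in the vehicle rats. That was a 2.35-fold lower level (adjusted p = 0.861 in limma with the constant prior). Osgin1, an oxidative stress response gene, had 4.57 and 5.14 in the aldosterone rats against 5.63 and 5.72 in the vehicle rats. Srxn1, which repairs oxidized peroxiredoxins, had 4.09 and 4.23 in the aldosterone rats against 4.58 and 4.56 in the vehicle rats. Gclc, the catalytic subunit of the enzyme that limits glutathione synthesis, named after its values were seen, had 10.31 and 9.94 with aldosterone against 10.73 and 10.56 with vehicle. Nfe2l2, which encodes NRF2 and was also named afterwards, had overlapping groups, at 8.53 and 8.77 with aldosterone against 8.87 and 8.74 with vehicle. The exception with groups apart was Slc7a11, the cystine transporter gene, named afterwards, at 2.91 and 2.96 with aldosterone against 1.81 and 2.19 with vehicle, all near the floor.

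Of 19 measured genes of peroxide and superoxide removal, 8 had a negative and 11 a positive difference, with a median of 0.0545, and 0 passed with either prior. The thioredoxin system was split. Txnrd1, the cytosolic thioredoxin reductase, had log2 values of 7.16 and 7.03 in the aldosterone rats against 7.75 and 7.96 in the vehicle rats, 1.69-fold lower. Txn1, thioredoxin itself, had 11.68 and 11.44 in the aldosterone rats against 11.12 and 11.15 in the vehicle rats, 1.34-fold higher. Glrx, a glutaredoxin gene, had 8.69 and 8.36 in the aldosterone rats against 7.90 and 8.14 in the vehicle rats. The adjusted p of these 3 genes in limma with the constant prior lay between 0.711 and 1.00. In the whole list 3 of 19 genes had both aldosterone values higher and 2 had both lower, beside 16.7% and 11.1% of all rows.

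**Figure D4:**
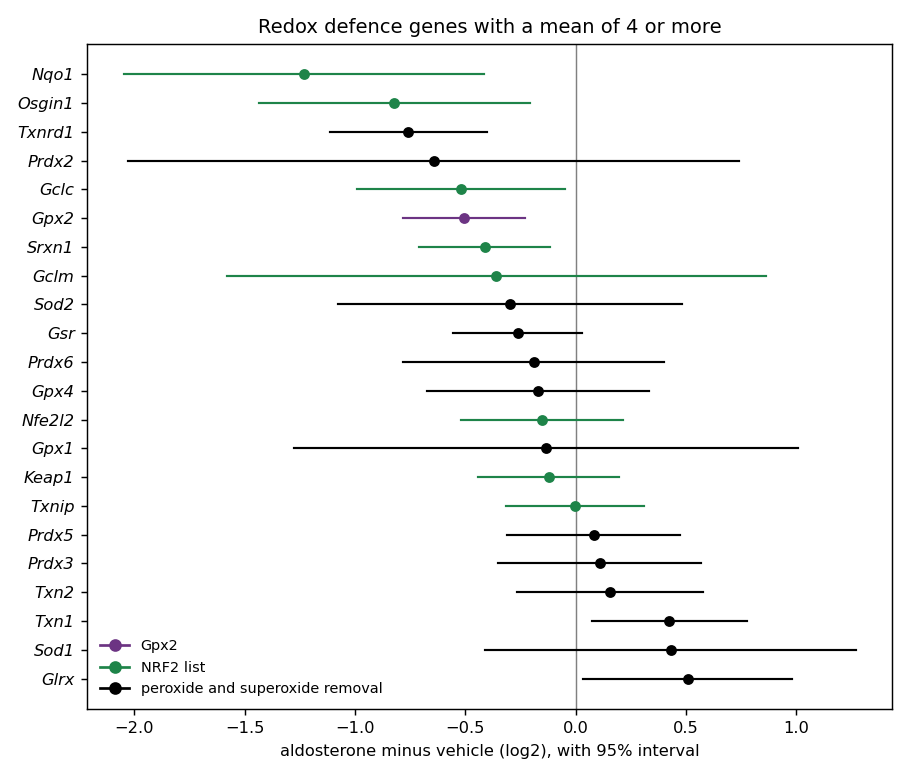
Aldosterone minus vehicle on the log2 scale (horizontal axis) with 95% intervals from limma with the constant prior, for 22 genes with a mean of 4 or more, namely Gpx2 (purple), the NRF2 list (green) and the list of peroxide and superoxide removal (black), ordered by the difference. With this prior Nqo1, Osgin1, Txnrd1, Gclc, Gpx2 and Srxn1 have intervals below 0, and Txn1 and Glrx have intervals above 0. With the prior that follows level, whose intervals are not drawn, that of Gpx2 held 0 (-1.16 to 0.15). None of these genes passed the adjusted threshold with either prior.

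Most of the epithelial defence genes that rise with DUOX2 in gut inflammation lay at low levels. Of the 11 measured, all but Ccl20 and Zc3h12a had a mean below 4. A positive difference was seen in 4 and a negative in 7, with a median of -0.14, and 0 passed with either prior. Both aldosterone values were lower in 3 of the 11 and higher in 0, beside 11.1% and 16.7% of all rows. Ccl20, an epithelial chemokine gene, had log2 values of 4.14 and 5.88 in the aldosterone rats against 5.88 and 5.04 in the vehicle rats. Zc3h12a, which encodes the RNase regnase-1, had 6.14 and 5.45 in the aldosterone rats against 6.39 and 6.50 in the vehicle rats, and its groups did not overlap. Nos2 and Lcn2, the inducible nitric oxide synthase and lipocalin-2 genes named after their values were seen, lay between 2.07 and 2.32 in all 4 rats.

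The cells carried the markers of surface colonocytes. All 10 measured markers of that list had a mean of 4 or more, and their values, added on the linear scale, came to 25166 and 24501 in the aldosterone rats against 19119 and 22214 in the vehicle rats. All 10 had a positive difference, with a median of 0.27 beside -0.0405 for all rows with a mean of 4 or more, and 0 calls with either prior. Both aldosterone values were higher in 6 of the 10 and both lower in 0, beside 16.7% and 11.1% of all rows. Among the 10 markers Slc9a3 reached a mean of 4 only through aldosterone replicate 1, at 8.39, and its groups overlapped. It had 3.44 in aldosterone replicate 2 and 2.48 and 3.99 in the vehicle rats. Slc26a3, the chloride-bicarbonate exchanger of surface cells, had log2 values of 12.75 and 12.61 in the aldosterone rats against 11.96 and 12.30 in the vehicle rats. The sum of 4 goblet cell markers was 1295 and 4011 in the aldosterone rats against 2813 and 2464 in the vehicle rats, so that aldosterone replicate 2, lowest for Duox2 and Duoxa2, was highest here. Among them Zg16, a goblet cell granule lectin gene, had log2 values of 6.39 and 8.06 in the aldosterone rats against 5.14 and 4.45 in the vehicle rats. The groups overlapped for Tff3, Agr2 and Atoh1. Tff3 had a negative difference, at 9.44 and 11.30 with aldosterone against 11.12 and 10.74 with vehicle. None of the 7 leukocyte, 7 enteroendocrine and tuft, or 5 stromal and muscle markers measured had a mean of 4 or more. Their linear sums in the aldosterone rats were 36.5 and 44.3, 50.6 and 47.2, and 40.9 and 45.6, against 40.6 and 34.6, 43.4 and 47.3, and 40.3 and 47.8 in the vehicle rats. Of 9 crypt and cycling markers only Pcna had a mean of 4 or more, and their sum was 81.4 and 66.7 with aldosterone against 74.2 and 64.6 with vehicle. The part of these markers in the differences of Duox2 and Duoxa2 was not tested. The hormone's action was visible in Sgk1, the kinase known as an early aldosterone target, at 12.54 and 12.52 in the aldosterone rats against 10.51 and 10.64 in the vehicle rats. Of the 6 corticosteroid targets used as a check (Sgk1, Tsc22d3, Scnn1g, Fkbp5, Per1 and Hif3a), 6 had both aldosterone values above both vehicle values, beside 16.7% of all rows. The aldosterone rats were less alike in some of them than in Sgk1. Fkbp5 had 8.33 and 6.30 with aldosterone against 2.29 and 2.30 with vehicle, and Scnn1g had 6.65 and 7.61 against 2.05 and 2.03. With the constant prior 0 of the 6 passed, and with the prior that follows level 5 passed, beside 0.108% of all rows. This list too was chosen with earlier results of these data known, so nothing is read from its shares.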

How the data were processed

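RNA from surface colonocytes of 4 rats, 2 aldosterone and 2 vehicle, was measured on Affymetrix exon arrays, 1 array per rat, and the labels call the rats biological replicates. The deposited values are log2 expression values per row and array. Per the submitters' processing notes the authors used RMA, Affymetrix Expression Console and Partek, with no version, role or order given. RMA corrects background, makes arrays alike in distribution and summarises probes. The log2 scale was read from the range of the values, 1.36 to 13.7. The number of arrays limits the precision, and detection calls were not used here, so rows near the floor were recognised by level alone.

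Gene names came from the platform's annotation, with 0 symbols changed through the Entrez ID in RefSeq (GRCr8). Of the rows, 13327 had 1 symbol, 620 several and 5456 none here. All 19403 rows were fitted in R 4.3.3 with limma 3.58.1, using lmFit with a single treatment term and eBayes with one prior variance for all rows (the constant prior), with two-sided p-values and Benjamini-Hochberg adjustment over all rows and a threshold of 0.05. The fit was tested on simulated data with 200 changed rows in each of 10 draws. The changed rows came from those with a mean of 4 or more and were shared among log2 changes of 1, 2, 4 and -2. A change of -2 was recovered in 32.4% of the rows given it with the constant prior, and in 100% with the prior that follows level. A change of 1 was recovered in 5.4% of rows with the constant prior and in 35.2% with the other, which made 10.6 false calls per draw against 0.1 with the constant prior. The simulated spread was drawn from the fit whose prior follows level, which favours that fit. Each simulated row had the spread of its level and none of its own. The shares therefore do not say how often a change in genes as variable as Duox2 and Duoxa2 would be called.

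Alternatives were quantile normalization, centring on array medians, filters on low rows, other priors, a block on replicate number, omission of single arrays and the mean over a gene's rows. Genes to be named were all measured members, up to 3 genes of each other list with a mean of 4 or more and the smallest p, the check genes, and the nearest profiles. Members, lists and alternatives were chosen with earlier results of these data known. Python 3.11.15, pandas 2.3.3 and matplotlib 3.10.9 made tables and plots.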

Additional observations from a re-analysis of the deposited data

How the results depend on the processing

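Duox2, Duoxa2, Gpx2, Noxo1 and Rac1 kept their direction under all 19 alternatives, of which 18 gave a value for Noxo1. Duox2 ranged from -2.50 to -0.95, Duoxa2 from -3.996 to -2.19, Gpx2 from -0.56 to -0.45, Noxo1 from -0.52 to -0.44 and Rac1 from 0.0164 to 0.17. Duoxa1 reversed to -0.0191 with quantile normalization and to -0.0442 with arrays centred on their medians. With an array left out, Duoxa1 ranged from -0.21 to 0.23, Duox1 from -0.0717 to 0.0343 and Noxa1 from -0.30 to 0.0425, with Duox1 at 0.00197 without aldosterone replicate 1 and Duoxa1 at -0.0441 without aldosterone replicate 2. All rows called numbered 21 with the intensity trend, 6 with the intensity trend and the replicate block, 12 among rows of mean 4 or above and 1 among rows at or above the median, where fewer rows are tested, against 0 in the reported fit. With an array left out they ranged from 0 to 142, where the trend gave 137 without aldosterone replicate 1, 142 without aldosterone replicate 2, 7 without vehicle replicate 1 and 8 without vehicle replicate 2. Members called numbered 1 with the intensity trend, and from 0 to 2 with an array left out. The 2 were Duox2 and Duoxa2, without aldosterone replicate 1 and with the trend, where the spread came from the vehicle rats alone. The single array of the other group is then assumed to vary like them. The median of the members was -0.35 with centring, -0.48 among the 6 members at or above the row median and -1.11 among the 4 of mean 4 or above, and ranged from -0.38 to -0.22 with an array left out. The replicate numbers of the labels are not said to pair rats. Deviations of same-numbered rats correlated at 0.15 over all rows and at 0.0934 among those of mean 4 or above. With the replicate block alone 0 rows and 0 members passed, and the trend's call of Duoxa2 was lost (adjusted p = 0.172). Why calls changed was not tested beyond this.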

Other observations

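Lpo, which encodes lactoperoxidase, a secreted peroxidase that uses the hydrogen peroxide made by dual oxidases, stood higher in both aldosterone rats. Its log2 values were 6.73 and 5.996 in the aldosterone rats against 4.30 and 4.53 in the vehicle rats, a difference of 1.95. The adjusted p in limma was 0.698 with the constant prior and 0.0653 with the prior that follows level, so it did not pass with either. Of the 6 measured heme peroxidase and iodide handling genes it alone had a mean of 4 or more, and 5 of the 6 had a positive difference with a median of 0.0809.

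Of 16 measured cytokine receptor and signalling genes known to act upstream of DUOX2, 10 had a positive and 6 a negative difference, with a median of 0.0628 and 0 calls with either prior. Irf1, an interferon-induced transcription factor gene, had 6.06 and 5.93 in the aldosterone rats against 7.41 and 6.70 in the vehicle rats. Il4r, the interleukin-4 receptor gene, had 8.21 and 8.70 in the aldosterone rats against 9.22 and 8.98 in the vehicle rats. Tlr4, the receptor for bacterial lipopolysaccharide, had 8.12 and 7.25 in the aldosterone rats against 6.77 and 6.20 in the vehicle rats. In the whole list 5 of 16 genes had both aldosterone values higher and 2 had both lower, beside 16.7% and 11.1% of all rows.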
